A study of Caenorhabditis elegans with 16 samples.

Results

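The miR-51 to miR-56 family of Caenorhabditis elegans was followed through 16 small RNA libraries prepared from mRNA pulldowns of young adult worms. Its members were taken by name from the mature miRNA column of the count files. They comprise 6 guide arms, cel-miR-51-5p, cel-miR-52-5p, cel-miR-53-5p, cel-miR-54-3p, cel-miR-55-3p and cel-miR-56-3p, and 2 passenger arms, cel-miR-51-3p and cel-miR-54-5p (written without cel- from here on), which makes 8 of the 434 mature miRNAs listed. All 8 passed the filter on low counts, as did 112 miRNAs in all. The remaining arms of the 6 precursors were hardly sequenced: miR-53-3p, miR-55-5p and miR-56-5p reached at most 1, 5 and 1 reads in any library, and miR-52-3p at most 32.

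A miRNA precursor folds into a hairpin whose stem is cut into a duplex of its 5p and 3p arms. An Argonaute protein such as ALG-1 normally keeps one arm, the guide, which pairs with target mRNAs through its seed, while the other arm, the passenger, is released and degraded. The miR-51 family is broadly expressed in the worm and related to the miR-99 and miR-100 family of other animals. Its genes act redundantly, and worms that lack the whole family die as embryos.

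The precursor genes lie on 2 chromosomes of the WBcel235 assembly, where each is annotated as a miRNA gene. On chromosome IV, mir-51 (11026013 to 11026112, minus strand) and mir-53 (11027593 to 11027691, minus strand) are separated by 1480 bases, and mir-52 (14034008 to 14034107, plus strand) lies apart from both. On chromosome X, mir-56 (13144691 to 13144787), mir-55 (13144827 to 13144924) and mir-54 (13144996 to 13145094) form a cluster on the minus strand, with 39 bases between mir-56 and mir-55 and 71 between mir-55 and mir-54. The mature miR-52-5p and miR-53-5p are near-identical in sequence, so their reads may have been shared between the entries by the read assignment, and their separate counts are uncertain.

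In the study, worms were crosslinked with UV light, an mRNA was captured with complementary biotinylated DNA probes (a method named vIPR), and the small RNAs in the elution were sequenced. Probes against gfp were used on wild-type N2 worms, which carry no gfp and formed the no-target control (n = 3), on strain BS1080 with a gld-1::gfp transgene (n = 2) and on strain DG3913 with gfp-tagged lin-41, called gfp::lin-41 (n = 1). Probes against the endogenous mRNAs were used on N2 worms for lin-41, alg-1 and gld-1 (n = 2 each), and gld-1 probes on N2 worms in which the miR-84 site of gld-1 had been edited by CRISPR, either destroyed (seed destruction, n = 2) or converted (changed specificity, n = 2). The RNA-binding proteins LIN-41 and GLD-1 control germ cell mRNAs. ALG-1 is an Argonaute. The question was which miRNAs come down with each mRNA. For this family it was also whether the passengers moved apart from their guides. The labels do not say whether replicates came from separate worm cultures, so that p-values measure only the spread between these libraries.

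The libraries held 12474 (control replicate 3) to 2081849 (gfp::lin-41) reads, and a count of 3 reads corresponded to 0.0241% and 0.000144% of them. These limits and the binomial intervals below cover counting error only, since reads after PCR are not independent molecules. In the deposited library names, 3 of the 6 gfp-probe libraries (control replicate 1, gld-1::gfp replicate 1 and gfp::lin-41) share the prefix E, and no gene-probe library carries it. What the prefixes stand for is not given. The germline and embryo miRNAs miR-35-3p to miR-42-3p, measured as 8 arms, took 2.29% to 10.1% of the reads of the controls and 0.126% to 3.77% elsewhere. The intestinal miR-60-3p took 0.129% to 0.168% and at most 0.0876%, the muscle miRNA miR-1-3p had at most 8 reads in any library, and the neuronal lsy-6-3p had 0. The part of these in the results below was not tested.

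Together the 6 guides held 13%, 13.7% and 13.9% of the reads of the no-target controls, and less in every other library. They took 2.74% and 4.77% in alg-1, 2.53% and 5.44% in seed destruction, 0.563% and 1.87% in gld-1, 0.418% and 0.714% in lin-41, 0.555% and 0.737% in gld-1::gfp, 0.505% in gfp::lin-41, and 0.126% and 0.379% in changed specificity. Such shares fall when a captured miRNA fills a library. Levels are therefore given as normalised CPM, that is CPM (counts scaled to a common library size) after adjusting each library so that most miRNAs match (TMM factors from 0.155 to 5.31). On this scale the summed guides lay between 26147 and 31594 in the controls and between 8109 and 27762 in the other 13 libraries, where only alg-1 replicate 1 reached the control range.

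**Figure D1:**
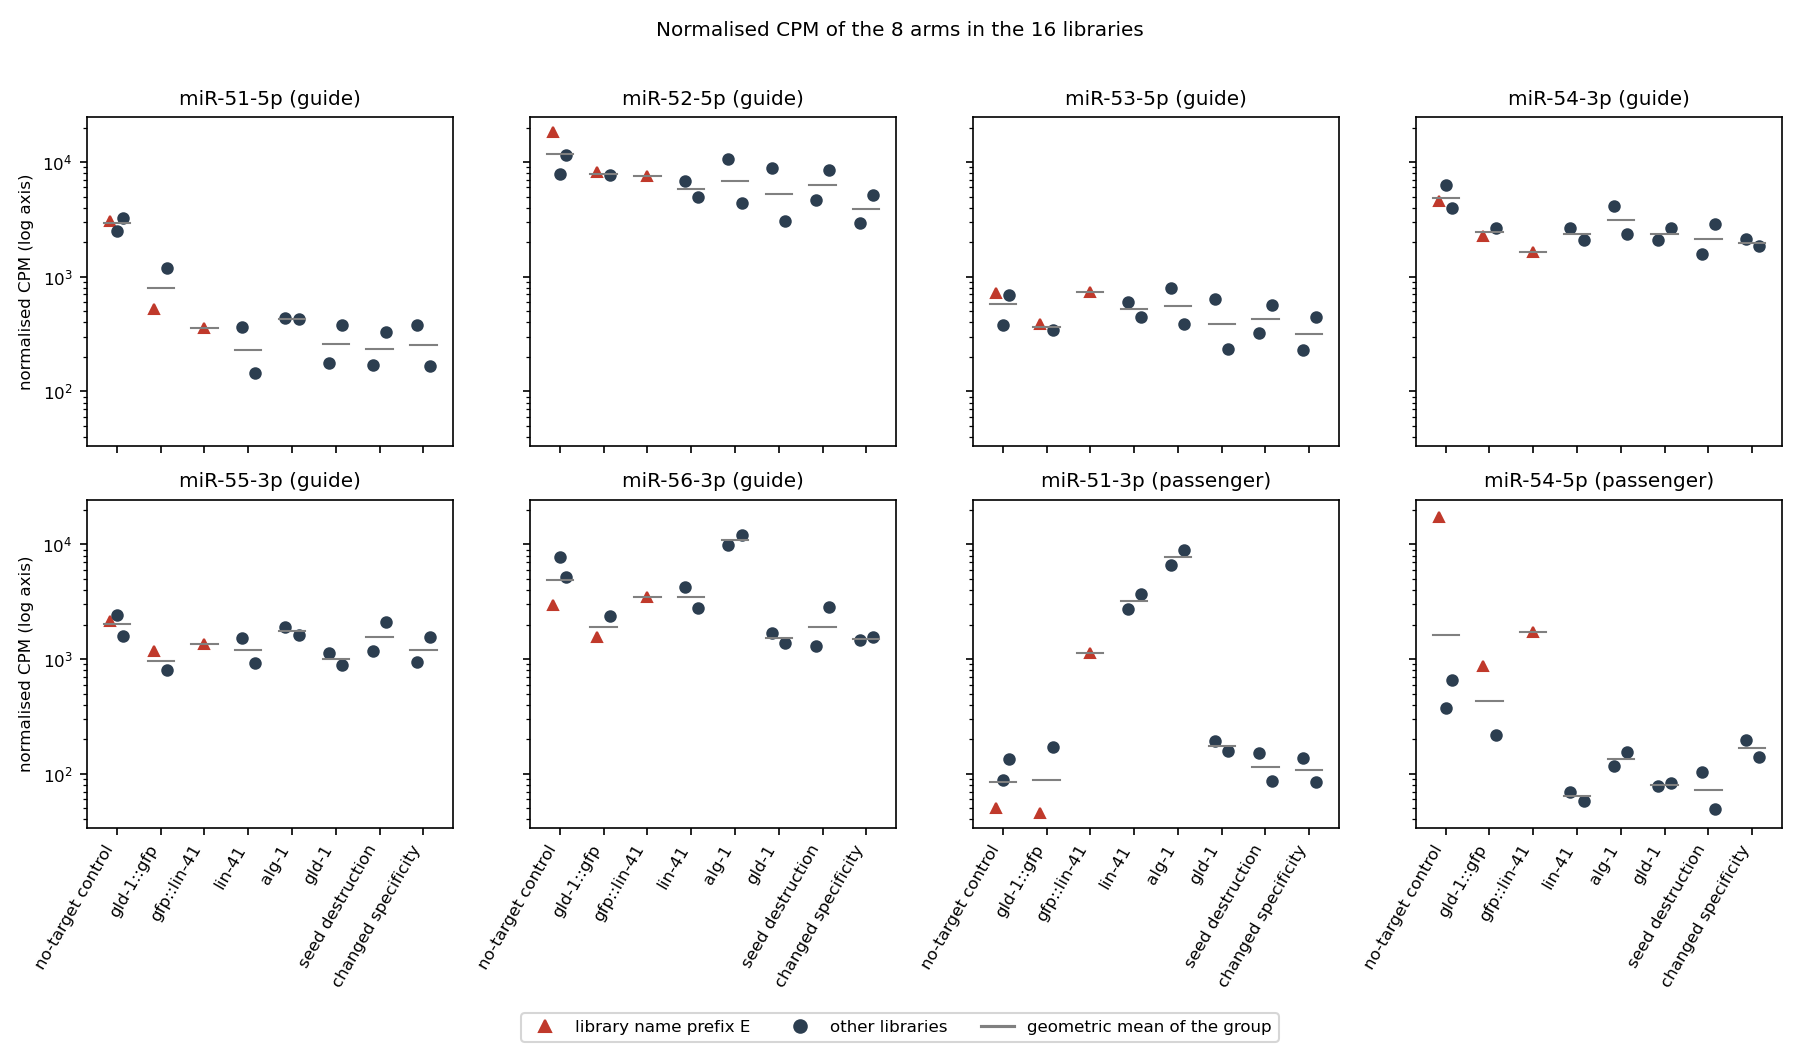
Normalised CPM (log axis) of the 8 arms in each of the 16 libraries by group, with a grey line at the geometric mean of a group and red triangles for libraries with name prefix E. miR-51-3p lies between 1141 and 9031 in the gfp::lin-41, lin-41 and alg-1 libraries and at 195 or less in the others, miR-51-5p is at 2526 or more in the 3 controls and at most 1199 elsewhere, and miR-54-5p is highest in the 3 red libraries.

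The most abundant guide was miR-52-5p in 15 of the 16 libraries, with 507 to 8143 reads a library. The exception was alg-1 replicate 2, where miR-56-3p led with 1969 reads against 717. It made up 20.7% to 60.8% of the reads of the 6 guides. The rarest guide was miR-53-5p in 8 libraries, all 3 controls among them, and miR-51-5p in the other 8. There were 0.0397 to 0.0982 reads of miR-53-5p for each read of miR-52-5p. The ratio lay between 0.0397 and 0.0608 in the controls and gld-1::gfp and between 0.0670 and 0.0982 in the other 11 libraries. Among the clustered guides, miR-55-3p stood at 0.298 to 0.841 reads per read of miR-54-3p. miR-56-3p moved more freely, from 0.524 reads per read of miR-54-3p in gld-1 replicate 2 to 5.18 in alg-1 replicate 2.

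The passenger miR-51-3p rose in the lin-41 and alg-1 pulldowns. It had 16, 18 and 9 reads in the no-target controls, which corresponded to 49.8, 88.1 and 136 normalised CPM. In lin-41 it had 744 and 379 reads (2742 and 3693 normalised CPM), and in alg-1 1832 and 1468 reads (6642 and 9031 normalised CPM). Neither group overlapped the controls, as was the case for 37.5% of the 112 tested miRNAs in lin-41 and 38.4% in alg-1. As a plain share of reads, lin-41 did overlap them, with 0.0705% in replicate 1 beside 0.0722% in control replicate 3. The log2 fold change was 5.22 (SE 0.65) in lin-41 (edgeR adjusted p = 5.55e-07) and 6.51 (SE 0.67) in alg-1 (edgeR adjusted p = 3.5e-08). Scaled by library totals alone, these values were 1.83 (edgeR adjusted p = 0.0289) and 4.76 (edgeR adjusted p = 0.000119). In alg-1 replicate 2 it took 1.16% of all reads, more than the guide miR-52-5p, which had 717 reads there.

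The tagged transcript gave a high value as well, although with 1 library and without a test. In gfp::lin-41 there were 796 reads of miR-51-3p, which is 0.0382% of the library (Wilson 95% interval 0.0357% to 0.0410%) and 1141 normalised CPM. Against the control with the same name prefix (replicate 1), its log2 level was higher by 4.43. In the remaining groups miR-51-3p stayed low. It had 45 and 36 reads in gld-1::gfp, 45 and 42 in gld-1, 51 and 28 in seed destruction and 26 and 25 in changed specificity, and the normalised CPM of these 8 libraries lay between 45.5 and 195. The log2 fold changes against the control were 0.28 (SE 0.62) for gld-1::gfp, 1.03 (SE 0.61) for gld-1, 0.47 (SE 0.61) for seed destruction and 0.36 (SE 0.62) for changed specificity, none of which passed the test (edgeR adjusted p = 0.23 to 0.83).

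The difference between the pulldowns was tested directly in comparisons added after the data were seen. Each of these mRNAs was captured with its own probes, so mRNA and probes cannot be told apart. miR-51-3p was higher in lin-41 than in gld-1 by 4.19 (SE 0.71) on the log2 scale (edgeR adjusted p = 7.72e-05, with 15.2% of all miRNAs passing) and higher in alg-1 than in gld-1 by 5.47 (SE 0.75) (edgeR adjusted p = 4.25e-06, with 17.9% of all passing). The order of levels was thus alg-1, lin-41 and gfp::lin-41, followed by the other groups, whose ranges overlapped. Between alg-1 and lin-41 the difference of 1.28 (SE 0.63) did not pass (edgeR adjusted p = 0.20), where 17% of all did. Libraries sharing a name prefix gave like values: with prefix PD2, lin-41 replicate 1 and alg-1 replicate 1 were higher than control replicate 2 by 4.91 and 6.18, and with prefix PD1, alg-1 replicate 2 was higher than control replicate 3 by 6.02, while gld-1 replicate 2 and gld-1::gfp replicate 2 were higher by 0.21 and 0.32.

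The guide from the same hairpin, miR-51-5p, fell. It had 986, 516 and 214 reads in the controls (3070, 2526 and 3229 normalised CPM). The reads in lin-41 were 99 and 15, in alg-1 121 and 69, in gld-1 41 and 102, in seed destruction 57 and 106, and in changed specificity 71 and 50, and these 10 gene-probe libraries lay between 146 and 439 normalised CPM, with no overlap with the controls. Of all tested miRNAs, 37.5% did not overlap in lin-41, 38.4% in alg-1, 42% in gld-1, 37.5% in seed destruction and 47.3% in changed specificity. The log2 fold changes were -3.50 (SE 0.69) in lin-41, -2.77 (SE 0.66) in alg-1, -3.39 (SE 0.68) in gld-1, -3.57 (SE 0.69) in seed destruction and -3.43 (SE 0.68) in changed specificity (edgeR adjusted p between 0.000455 and 0.0022). With gfp probes, gld-1::gfp had 518 and 253 reads (523 and 1199 normalised CPM), and its log2 fold change of -1.78 (SE 0.62) missed the threshold (edgeR adjusted p = 0.06). It was -2.48 without gld-1::gfp replicate 2 (edgeR adjusted p = 0.0492) and -0.83 without replicate 1 (edgeR adjusted p = 0.624). gfp::lin-41 had 248 reads, which is 0.0119% of the library (Wilson 95% interval 0.0105% to 0.0135%) and 356 normalised CPM.

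This fall was also present relative to the other guides, in a measure that needs no scaling between libraries. miR-51-5p made up 9.72%, 9.29% and 12.3% of the reads of the 6 guides in the controls, 3.71% and 7.99% in gld-1::gfp, 2.36% in gfp::lin-41, and 1.21% to 4.67% (median 1.86%) in the 10 gene-probe libraries. All 13 pulldowns of a target were below the 3 controls.

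**Figure D2:**
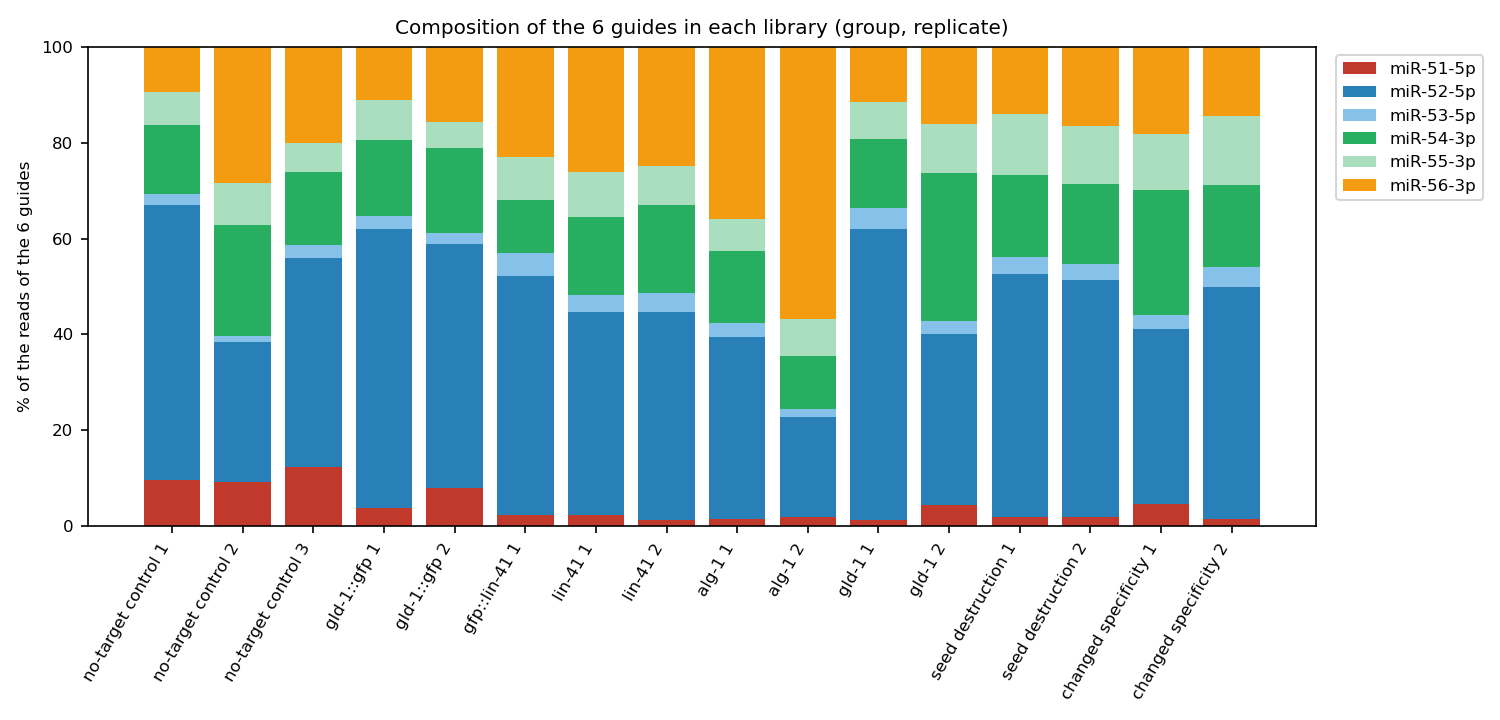
Percentage of the reads of the 6 guides taken by each guide (stacked bars, 1 bar a library, group and replicate on the x axis). The red share of miR-51-5p is 9.29% to 12.3% in the 3 controls and at most 7.99% elsewhere, and the orange share of miR-56-3p is largest in alg-1, with 35.8% and 56.9%.

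Passenger and guide of mir-51 moved in opposite directions in lin-41 and alg-1, and their ratio was read within each library. For each read of miR-51-5p there were 0.0162, 0.0349 and 0.0421 reads of miR-51-3p in the controls, and 0.0869 and 0.142 in gld-1::gfp. In gld-1 the ratio was 1.10 and 0.412, in seed destruction 0.895 and 0.264, and in changed specificity 0.366 and 0.50. It was 3.21 in gfp::lin-41, 7.52 and 25.3 in lin-41, and 15.1 and 21.3 in alg-1. The passenger therefore outnumbered its guide in all 5 lin-41, gfp::lin-41 and alg-1 libraries and in gld-1 replicate 1, and over all 16 libraries it was the arm with more reads, 5560 against 3466. The mean log2 ratio was 1.02 ± 2.61 (SD, n = 10) with gene probes and -3.27 ± 2.65 (SD, n = 6) with gfp probes. This difference of 4.30 passed an exact two-sided permutation test (p = 0.00874, adjusted over the 2 ratios 0.00874, where 0.000125 is the smallest p possible), although gfp::lin-41 lay within the range of the gene-probe libraries. The test permuted single libraries, although each pulldown group had only gene or only gfp probes. Its p-value therefore does not measure the spread between pulldown groups. The no-target controls were all on the gfp side, so probes and targets cannot be told apart.

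**Figure D3:**
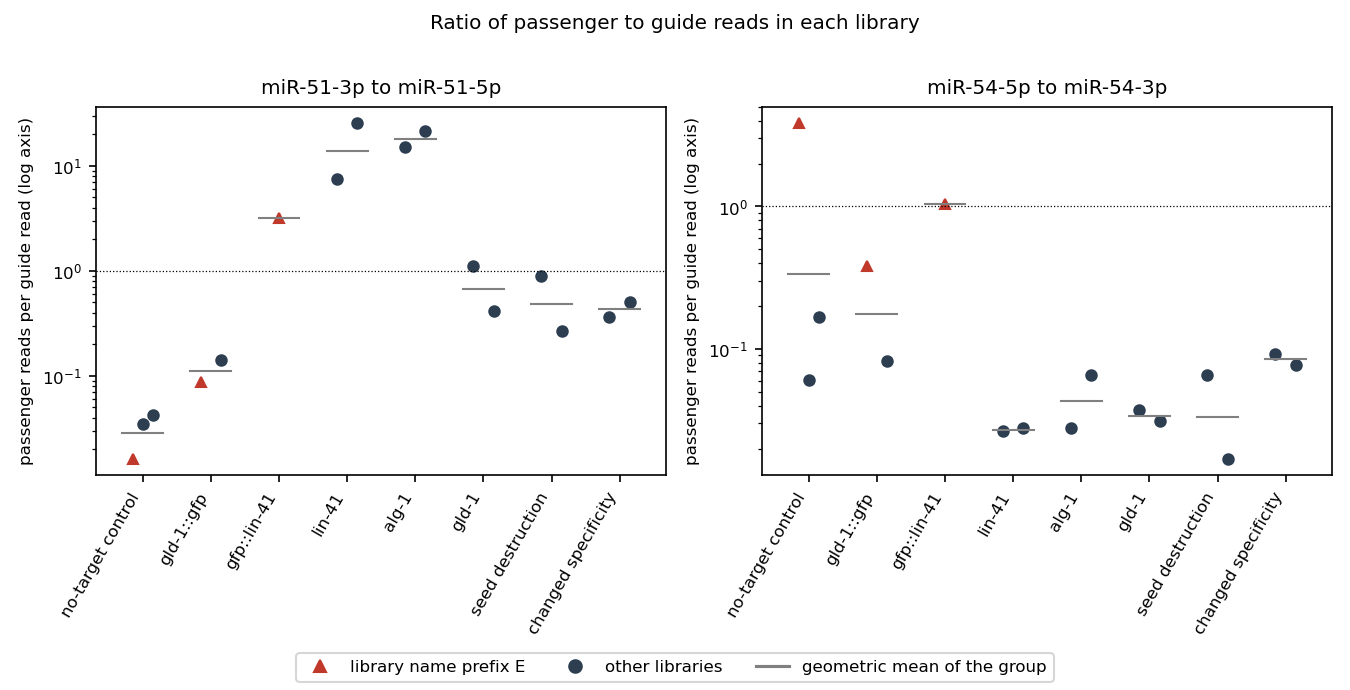
Reads of the passenger per read of its guide (log axis) for mir-51 and mir-54 in each library, with a grey line at the geometric mean of a group and a dotted line at equal reads. The mir-51 ratio runs from 0.0162 in a control to 25.3 in lin-41, whereas the mir-54 ratio is 0.383 or more in the 3 red libraries with name prefix E and at most 0.167 in the other 13.

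The passenger miR-54-5p behaved differently. It had 5590, 77 and 44 reads in the controls (17403, 377 and 664 normalised CPM), so that the 3 controls themselves spanned a wide range. In gld-1::gfp it had 854 and 46 reads (863 and 218 normalised CPM), and in gfp::lin-41 1202 reads (1723 normalised CPM). The 10 gene-probe libraries held 6 to 42 reads (lin-41 19 and 6, alg-1 32 and 25, gld-1 18 and 22, seed destruction 35 and 16, changed specificity 37 and 42), or 49.4 to 197 normalised CPM. The 3 libraries with the most reads carried the prefix E. Of the other arms of the family, miR-52-3p had the same pattern at a far lower level, with 24, 23 and 32 reads in these 3 libraries and at most 5 in the other 13.

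Against the no-target control, miR-54-5p fell, with log2 fold changes of -6.56 (SE 1.73) in lin-41 (edgeR adjusted p = 0.0209), -5.52 (SE 1.62) in alg-1 (edgeR adjusted p = 0.0277), -6.26 (SE 1.69) in gld-1 (edgeR adjusted p = 0.0204), -6.32 (SE 1.69) in seed destruction (edgeR adjusted p = 0.0213) and -5.19 (SE 1.59) in changed specificity (edgeR adjusted p = 0.0353). The size of these values rested on control replicate 1. Without it, they were -2.97 in lin-41, -1.92 in alg-1, -2.68 in gld-1 and -2.75 in seed destruction, which passed (edgeR adjusted p = 0.00467 to 0.04997), and -1.61 in changed specificity, which did not (edgeR adjusted p = 0.0921). In gld-1::gfp, the value of -3.50 (SE 1.44) did not pass (edgeR adjusted p = 0.13) and turned to 0.08 without that control. Without control replicate 2 it was -4.05 and passed (edgeR adjusted p = 0.00921). Each of the 5 calls was also lost when either pulldown replicate was left out (edgeR adjusted p = 0.1 to 0.235). Among the pulldowns, miR-54-5p differed from gld-1 by -0.30 (SE 1.52) in lin-41 and by 0.74 (SE 1.46) in alg-1, and alg-1 from lin-41 by 1.04 (SE 1.51), none of which passed (edgeR adjusted p = 0.718 to 0.944). Within a name prefix, miR-54-5p was lower than the matching control by 1.59 to 2.96 on the log2 scale in prefixes PD1 and PD2 (5 libraries) and by 3.33 in gfp::lin-41 and by 4.33 in replicate 1 of gld-1::gfp.

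Its guide miR-54-3p varied less. It had 1462, 1281 and 263 reads in the controls (4552, 6270 and 3968 normalised CPM), and the other 13 libraries lay between 1581 and 4148 normalised CPM. Log2 fold changes against the control ran from -1.31 in changed specificity to -0.60 in alg-1, and none passed (edgeR adjusted p = 0.0863 to 0.487). The ratio of miR-54-5p to miR-54-3p was 3.82, 0.0601 and 0.167 in the controls, 0.383 and 0.0817 in gld-1::gfp, 1.04 in gfp::lin-41, and 0.0170 to 0.0927 (median 0.0341) in the 10 gene-probe libraries. The mean log2 ratio was -4.55 ± 0.79 (SD, n = 10) with gene probes and -1.59 ± 2.28 (SD, n = 6) with gfp probes, a difference of -2.95 (exact two-sided permutation test, p = 0.00137, adjusted over the 2 ratios 0.00275). Here, too, libraries of the same pulldown group were permuted as separate units, and the no-target controls were all on the gfp side. Without the 3 libraries of prefix E the difference was -1.16 and did not pass (exact permutation p = 0.0664, smallest possible 0.0035). For mir-51 it was 5.01 and passed (exact permutation p = 0.0175). However, this also left out gfp::lin-41, the gfp-probe library whose mir-51 ratio of 3.21 lay within the gene-probe range. All libraries of prefix E were made with gfp probes, so the prefix and the probes cannot be told apart there.

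Over the whole family, 3 of the 8 arms passed the test against the control in lin-41 (miR-51-3p higher, miR-51-5p and miR-54-5p lower), where 17.9% of the 112 tested miRNAs passed, 13.4% higher and 4.46% lower. In alg-1 the same 3 arms passed, in the same directions, against 21.4% of all, 16.1% higher and 5.36% lower. In gld-1, 3 arms passed, all lower (miR-51-5p, miR-54-5p and miR-56-3p), against 22.3% of all and 7.14% lower. Seed destruction had 2 (miR-51-5p and miR-54-5p, both lower) against 17.9% and 6.25% lower, changed specificity 3 (miR-51-5p, miR-54-5p and miR-56-3p, all lower) against 21.4% and 7.14% lower, and gld-1::gfp 0 against 12.5%, with 3 arms at an unadjusted p under 0.05. DESeq2 called 1 arm in gld-1::gfp. These 6 comparisons share the same 3 controls. The median log2 fold change of the 6 guides was -0.89 in lin-41, -0.41 in alg-1, -1.02 in gld-1::gfp, -1.05 in gld-1, -1.03 in seed destruction and -1.46 in changed specificity, beside a median over all 112 miRNAs of -0.05, 0.07, -0.30, 0.20, 0.00 and -0.21 in the same order. When libraries were scaled by their totals alone, the median of all miRNAs moved to between -4.39 and -0.61, and all 6 guides were called lower in lin-41, gld-1, gld-1::gfp and changed specificity, where 75.9%, 50%, 75.9% and 81.2% of all miRNAs were called.

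**Figure D4:**
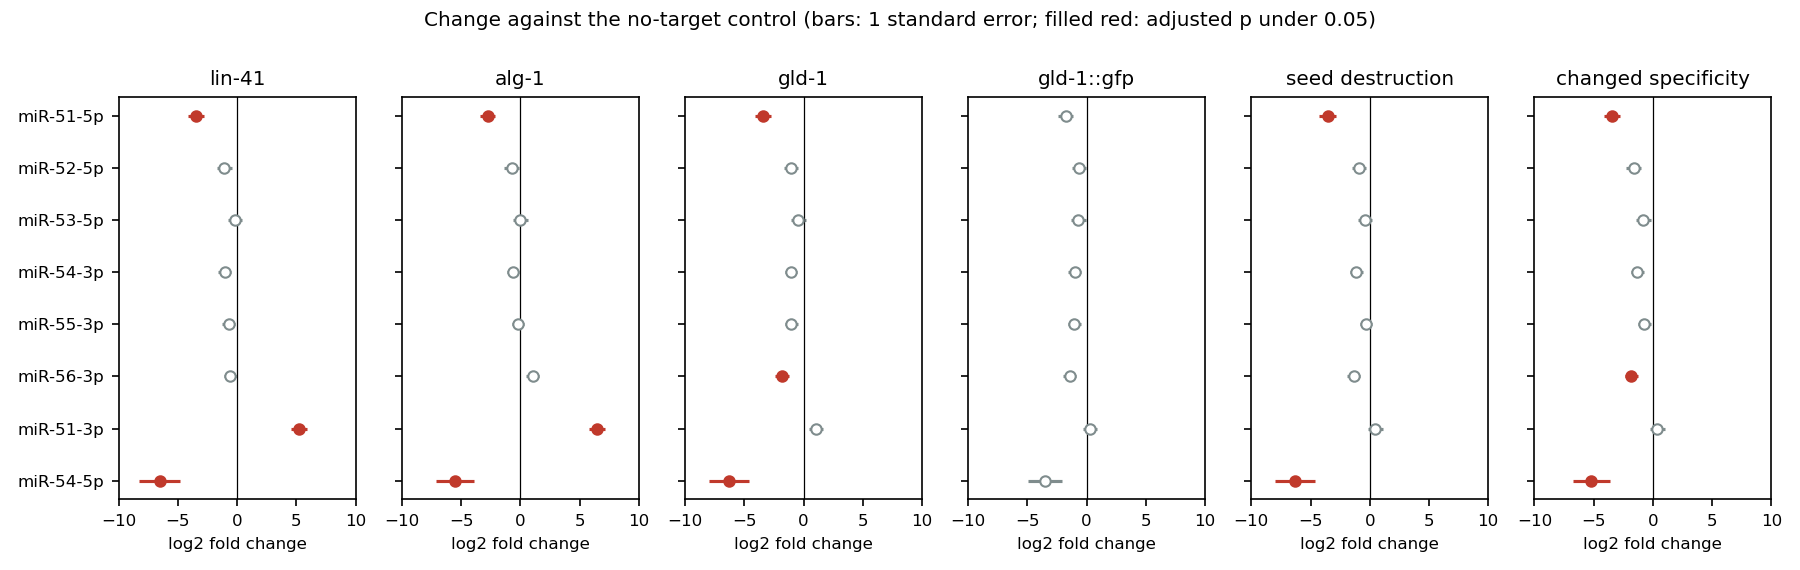
Log2 fold change of each arm against the no-target control (x axis, bars 1 SE) in 6 comparisons, filled red where the adjusted p was under 0.05. miR-51-3p is at 5.22 in lin-41 and 6.51 in alg-1, miR-51-5p and miR-54-5p lie on the lower side in all 6 panels, and the other guides lie between -1.81 and 1.05.

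Of the remaining guides, miR-56-3p differed most between the pulldowns. It had 959, 1574 and 348 reads in the controls (2986, 7705 and 5251 normalised CPM), 391 and 371 in gld-1 (1694 and 1393 normalised CPM) and 275 and 463 in changed specificity (1466 and 1556 normalised CPM). The log2 fold change against the control was -1.78 (SE 0.58) in gld-1 (edgeR adjusted p = 0.0275) and -1.81 (SE 0.58) in changed specificity (edgeR adjusted p = 0.025). Both calls were lost without control replicate 2 or without either pulldown replicate (edgeR adjusted p = 0.0782 to 0.295). In gld-1::gfp its change of -1.44 did not pass (edgeR adjusted p = 0.107), and single libraries moved it from -1.77 to -0.71, with a call without control replicate 1 (-1.74, edgeR adjusted p = 0.0267) and the lowest size without gld-1::gfp replicate 1 (edgeR adjusted p = 0.633). In seed destruction its change of -1.36 did not pass either (edgeR adjusted p = 0.0986), and single libraries moved it from -2.04 to -0.91, with a call without control replicate 1 (-1.66, edgeR adjusted p = 0.0283) and the lowest size without seed destruction replicate 1 (edgeR adjusted p = 0.616). In alg-1 it stood highest, with 2742 and 1969 reads (9942 and 12113 normalised CPM), above all controls, and the change of 1.05 (SE 0.54) did not pass (edgeR adjusted p = 0.18). Compared directly, it was higher in alg-1 than in gld-1 by 2.84 (SE 0.64) on the log2 scale (edgeR adjusted p = 0.00132), and the difference between alg-1 and lin-41 was 1.64 (SE 0.61), which did not pass (edgeR adjusted p = 0.0669). miR-56-3p took 35.8% and 56.9% of the reads of the 6 guides in alg-1 and 9.45% to 28.3% in the other 14 libraries. Its cluster neighbours miR-54-3p and miR-55-3p were not called in alg-1 against gld-1, with differences of 0.45 (SE 0.56) and 0.81 (SE 0.57).

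The guides miR-52-5p, miR-53-5p and miR-55-3p passed in no comparison. Their log2 fold changes against the control ran from -1.61 to -0.65 for miR-52-5p, from -0.82 to 0.00 for miR-53-5p and from -1.05 to -0.21 for miR-55-3p, with standard errors of 0.52 to 0.63. In changed specificity, miR-52-5p had -1.61 (edgeR adjusted p = 0.0672), which passed without control replicate 2 (-1.86, edgeR adjusted p = 0.0353) and was -1.11 without changed specificity replicate 1 (edgeR adjusted p = 0.557). With the name prefix as a factor, miR-52-5p was called lower in lin-41 (-1.35, edgeR adjusted p = 0.0247), seed destruction (-1.80, edgeR adjusted p = 0.0216) and changed specificity (-2.49, edgeR adjusted p = 0.00106), in fits that called 26.8%, 30.4% and 31.2% of all miRNAs. The levels of miR-53-5p were 377 to 719 normalised CPM in the controls and 229 to 798 elsewhere. Those of miR-55-3p were 1584 to 2403 and 796 to 2091.

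Editing of the miR-84 site was not followed by a called change in the family. Seed destruction against gld-1 gave 0 of 8 arms at an adjusted p under 0.05 and 0 at an unadjusted p under 0.05, beside 1.79% of all miRNAs, and changed specificity against gld-1 gave 0 and 0, beside 2.68%. DESeq2 called 0 in both. The standard errors of 0.56 to 1.45 on the log2 scale leave room for changes of several fold. The largest fitted differences were 0.70 (SE 0.57) for miR-55-3p in seed destruction and 1.07 (SE 1.45) for miR-54-5p in changed specificity. The passenger miR-51-3p had -0.57 (SE 0.65) and -0.67 (SE 0.66), and miR-54-5p in seed destruction had -0.07 (SE 1.45). For gld-1::gfp against endogenous gld-1, where strain and probes differ, 0 arms passed beside 11.6% of all, with 1 at an unadjusted p under 0.05: miR-51-5p, higher in gld-1::gfp by 1.61 (SE 0.66) (edgeR adjusted p = 0.137), which became 2.82 and passed without gld-1::gfp replicate 1 (edgeR adjusted p = 0.00949). DESeq2 called 0 here. miR-51-3p had -0.76 (SE 0.65), and miR-54-5p had 2.76 (SE 1.48, edgeR adjusted p = 0.292), which passed with only the compared groups in the fit (edgeR adjusted p = 0.00146).

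With the 10 gene-probe libraries set against the 6 gfp-probe libraries, each group weighing the same, 3 of the 8 arms passed beside 28.6% of all miRNAs. The no-target controls are all on the gfp side, whereas every gene-probe library had a target mRNA. Probes and targets therefore cannot be told apart here. miR-51-3p was higher by 1.38 (SE 0.39) (edgeR adjusted p = 0.00727), and miR-51-5p and miR-54-5p had log2 differences of -1.72 (SE 0.34) (edgeR adjusted p = 0.00052) and -4.19 (SE 0.75) (edgeR adjusted p = 0.00169). The ranges overlapped for both arms of mir-51. For miR-51-5p, gfp::lin-41 at 356 normalised CPM lay within the range of the gene-probe libraries. They did not overlap for miR-54-5p, as for 3.57% of all miRNAs, with 49.4 to 197 normalised CPM against 218 to 17403. The call for miR-51-3p was lost without gld-1::gfp replicate 1, alg-1 replicate 2, or either changed specificity replicate (0.85 to 1.19, edgeR adjusted p = 0.0619 to 0.166). With the name prefix as a factor in the fit, none of the 3 passed (0.58 for miR-51-3p, -1.23 for miR-51-5p and -0.74 for miR-54-5p).

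For comparison, 23 precursors had both arms tested. The difference between the log2 fold changes of the arms, taken without sign, had a median over them of 1.89 in lin-41, 1.97 in alg-1 and 2.78 in gld-1 against the control. For mir-51 the passenger minus the guide was 8.72 in lin-41 and 9.27 in alg-1, the second largest size of the 23 in both, and 4.42 in gld-1, the fifth largest. For mir-54 it was -5.50, -4.91 and -5.20, which ranked 6, 5 and 3. In seed destruction and changed specificity mir-51 had 4.03 and 3.8, both ranked 6, and mir-54 -5.19 and -3.87, ranked 3 and 5, beside medians of 1.71 and 2.08. In gld-1::gfp they had 2.05 and -2.50, ranked 8 and 7, beside 1.71. With gld-1 as the reference, the differences were -0.39 and 0.02 in seed destruction and -0.63 and 1.33 in changed specificity, beside medians of 0.56 and 0.99. Arms of a precursor thus commonly differed in these libraries. Both mir-51 and mir-54 lay above the median in all 6 comparisons with the control. The other family precursor with both arms tested, mir-52, exceeded the median only in lin-41, with a size of 5.18. Its sizes of 1.97 in alg-1 and 2.08 in changed specificity were the medians themselves. Lower than the median were its 1.35 for seed destruction, 0.84 for gld-1 and 0.28 for gld-1::gfp.

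**Figure D5:**
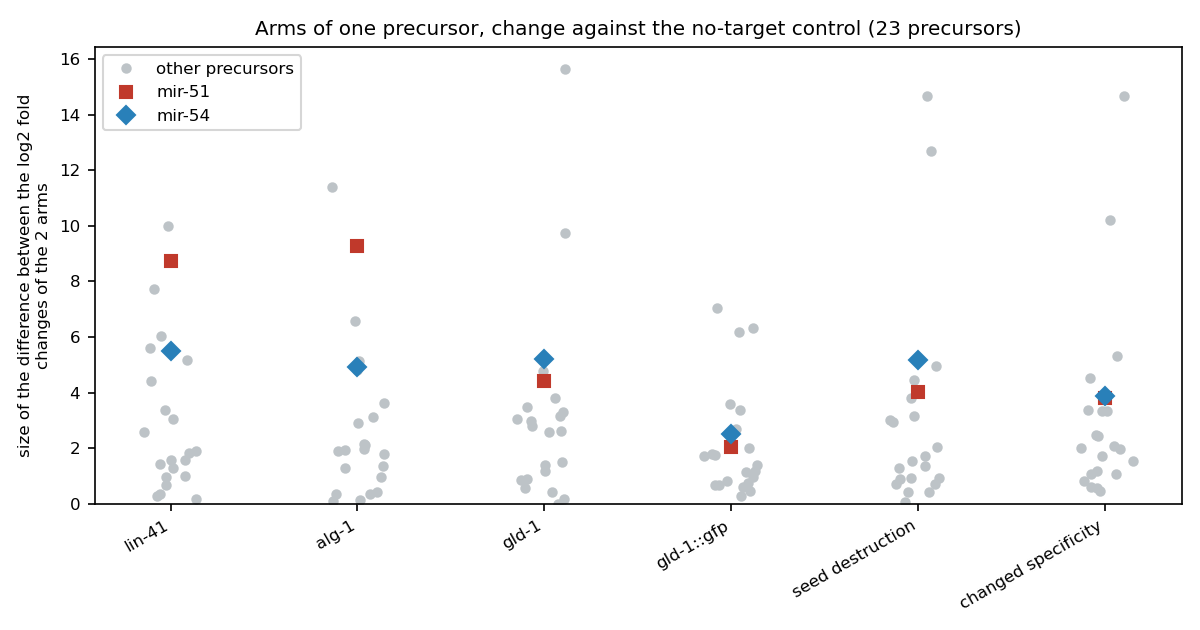
Size of the difference between the log2 fold changes of both arms of a precursor (y axis) in the 6 comparisons with the no-target control, for 23 precursors, with mir-51 as red squares and mir-54 as blue diamonds. The family precursor mir-52 is among the grey points. In lin-41 and alg-1 the red squares are at 8.72 and 9.27, above all but 1 of the grey points.

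Outside the family, the miRNA with the pattern most like miR-51-3p over the 16 libraries was miR-241-5p, a let-7 family member (Pearson r of log2 normalised CPM 0.91), followed by miR-4814-3p (0.80), which had at most 47 reads a library, and miR-77-3p (0.65). The closest to miR-54-5p were miR-60-5p (0.87), with 0 to 20097 reads, miR-36-3p (0.84) and miR-39-3p (0.81), the last of which belong to the germline and embryo family. The summed guides were most like miR-71-3p (0.82), miR-60-3p (0.79) and miR-90-3p (0.72), of which miR-71-3p had at most 46 reads. Within the family, the near-identical miR-52-5p and miR-53-5p had an r of 0.81, as did miR-51-5p and miR-54-3p (0.81), whereas miR-51-3p and miR-51-5p had -0.33 and miR-54-5p and miR-54-3p 0.32. The points of these correlations share libraries and scaling factors, so they are descriptions. The bantam-like guides of miR-58, miR-80, miR-81 and miR-82, another abundant guide family, had 4 tested arms, of which 0 passed the edgeR test in any of the 10 planned comparisons (at most 1 in any of them at an unadjusted p under 0.05, 0 by DESeq2), with medians against the control from -0.56 to 0.42.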

How the data were processed

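Small RNAs from 16 mRNA pulldowns were sequenced, and the authors deposited 1 table of read counts per library, made per the labels with bcl2fastq, cutadapt 1.14 (reads of at least 17 bases kept) and Bowtie2 2.3.3.1, and with miRDeep2 per the methods of the study. The genome build is not given in the sources used here. Positions of the precursor genes are from the Ensembl annotation of WBcel235. Sequences were not used here. Each table listed 452 precursor entries of 434 mature miRNAs, and for a miRNA with several precursors the largest count was taken.

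A miRNA was tested where 2 or more libraries held 10 or more of its reads (112 miRNAs, which took 99.8% or more of every library). Testing was done in 1 fit of all 16 libraries with a mean per group, TMM factors and the robust quasi-likelihood test of edgeR 4.0.16 (limma 3.58.1, R 4.3.3), with Benjamini-Hochberg adjustment over all tested miRNAs of a comparison and a threshold of 0.05. The comparison of gene with gfp probes weighted groups equally. gfp::lin-41, with 1 library, was given values without a test. Ratios of passenger to guide were tested on log2((reads + 1)/(reads + 1)) by exact two-sided permutation over libraries. Libraries of the same pulldown group counted as separate units there, although they shared their probes. Shares of single libraries carry 95% Wilson intervals, and 3 reads is the limit that a count of 0 allows. Library totals ran from 12474 to 2081849 reads. Replicates differed by more than sampling noise, so that none was counted as a duplicate.

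All 8 arms were described, both passengers in every comparison, and a guide named with its test where it passed without overlap of the groups or where an alternative changed its call. The members and lists were chosen with earlier results of these data known. Alternatives covered other scaling, filters, DESeq2 1.42.0, fits without robust estimation, summed precursor entries, fits of only the compared groups, the replicate block, the library name prefix, other pseudocounts, thinning and leaving out each replicate. The comparisons of lin-41 and alg-1 with gld-1 and with each other, the crossed pairing and the ratios within prefixes PD1 and PD2 were added after the data were seen. On simulated data for gld-1 against the control (20 sets, a mean of 160 miRNAs tested, 20 of them changed 16-fold), 99% of the raised and 78.5% of the lowered miRNAs were recovered, with 1.1 false calls a set, and 0 calls were made where nothing was changed. Apart from these changes, all simulated libraries had the composition of the controls and the same fixed spread. The real libraries differ from that, so these rates need not hold for them.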

Additional observations from a re-analysis of the deposited data

Results flagged for a closer look

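Apart from the comparisons with the no-target control, a direct test of the difference between groups passed for 6 results. Between gene and gfp probes, the log2 differences were 1.38 for miR-51-3p, -1.72 for miR-51-5p and -4.19 for miR-54-5p, in a comparison where 28.6% of all miRNAs passed. The ranges of both mir-51 arms overlapped, and with the name prefix as a factor 0 of the 3 passed. Probes and targets cannot be told apart in that comparison. Between pulldowns with gene probes, miR-51-3p was higher in lin-41 than in gld-1 by 4.19 and higher in alg-1 than in gld-1 by 5.47 on the log2 scale, and miR-56-3p was higher in alg-1 than in gld-1 by 2.84.

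Outside the 8 described arms, miR-52-3p, which passed the filter and was fitted with the others, had 32 reads in gfp::lin-41. It had 24 in control replicate 1 and 23 in gld-1::gfp replicate 1, the other libraries of prefix E, and at most 5 in the other 13. In the 22 sets of libraries (11 measures, each in the 6 gfp-probe and the 10 gene-probe libraries) examined for a single library far from the rest, 0 were found, where chance gives about 5%. The sets mix pulldown groups, whose differences widen the range, so a deviating library can go unflagged. For miR-54-5p with gfp probes, control replicate 1 had a gap of 0.529 of the range, below the limit of 0.625.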

How the results depend on the processing

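Of 220 recomputed values for the planned comparisons and the ratios, 190 were unchanged. Another 803 covered single arms and the counts of called arms in the added comparisons, and 696 of these were unchanged. For a count of called arms, unchanged meant equal or within 1.5 times. For ratios and single arms it meant the same direction and call. Causes of the changes were not tested. Fits of only the compared groups hold fewer libraries. The call for miR-51-5p held in all 17 alternatives in each of lin-41, alg-1, gld-1, seed destruction and changed specificity against the control, and that for miR-51-3p in all 17 in lin-41 and in alg-1, although its size in lin-41 fell to 1.83 with library totals.

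Scaling by library totals gave 8 called arms in lin-41, 5 in alg-1, 8 in gld-1::gfp, 7 in gld-1 and 8 in changed specificity against the control, where 75.9%, 33%, 75.9%, 50% and 81.2% of all miRNAs were called, and 4 in changed specificity against gld-1, where 29.5% were. It turned miR-51-3p to -3.31 in gld-1::gfp, -1.29 in gld-1, -0.31 in seed destruction and -4.05 in changed specificity against the control and to 0.98 in seed destruction against gld-1, and miR-54-5p to -0.91 in changed specificity against gld-1. The control comparison of gld-1::gfp had 2 called arms with a mean of at least 10 reads, 1 with DESeq2, 1 without robust estimation and 3 with the prefix as a factor. Seed destruction against the control had 1 without a filter, 1 with only the compared groups and 4 with the prefix, changed specificity 1 with only the compared groups, gld-1::gfp against gld-1 1 with only the compared groups, and gene against gfp probes 0 with the prefix. miR-51-3p turned to -0.016 in seed destruction without prefix E, to -0.076 (prefix as a factor) and -0.10 (without prefix E) in changed specificity, and to 0.11 in gld-1::gfp against gld-1 without prefix E. miR-54-5p in seed destruction against gld-1 (-0.07) turned to 0.045 with RLE factors, 1.54 with totals, 0.10 with upper-quartile factors, 0.031 with a mean of at least 10 reads, 0.053 with DESeq2, 0.16 with summed entries, 0.27 with only the compared groups and 0.50 with the prefix, and in lin-41 against gld-1 to 0.20 with the prefix. The calls for miR-54-5p were also lost without a filter (edgeR adjusted p = 0.0944 to 0.144), with only the compared groups in all but gld-1 (edgeR adjusted p = 0.152 to 0.278), and in changed specificity with the prefix (-1.56, edgeR adjusted p = 0.139) and without prefix E (-1.76, edgeR adjusted p = 0.0594). Those for miR-56-3p were lost with only the compared groups (edgeR adjusted p = 0.209 in gld-1 and 0.0783 in changed specificity), and in changed specificity with RLE factors (edgeR adjusted p = 0.0515) and summed entries (edgeR adjusted p = 0.0818). Within prefixes PD1 and PD2, the log2 ratio difference was 6.47 for mir-51 (exact permutation p = 0.0571) and -1.38 for mir-54 (exact permutation p = 0.0857), where 0.0286 is the smallest p possible. Without prefix E it was -1.16 for mir-54.

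Leaving out each replicate gave 1 to 3 called arms in gld-1, in seed destruction and in changed specificity, 0 to 1 for gld-1::gfp both against the control and against gld-1. For gld-1::gfp and the control it moved miR-51-3p between -0.91 and 1.45 and miR-54-5p between -4.32 and 0.077, miR-54-5p between -0.70 and 0.37 in seed destruction against gld-1, and miR-51-3p between -1.74 and 0.64 in gld-1::gfp against gld-1. A library left alone in its group is assumed to vary like the others.

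The replicate numbers did not pair the libraries in general (mean correlation of same-numbered libraries -0.03 over 42 pairs, from -0.477 to 0.485). The highest value was that of seed destruction with changed specificity. Between groups of 2 libraries, both replicate numbers give the same value by construction, so the 42 values are not independent. With the replicate block, gld-1::gfp against the control gained 1 call, miR-56-3p in gld-1 lost its call (edgeR adjusted p = 0.0547), and the ratio differences stayed at 4.30 (exact permutation p = 0.0119) and -2.95 (exact permutation p = 0.0034). No other call changed with the block. With the crossed pairing, chosen after the data were seen, 0 arms were called in the 3 comparisons with gld-1. Leaving out prefix E does not apply to seed destruction and changed specificity against gld-1, which hold no such library.

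The shallowest library, control replicate 3, held 9 reads of miR-51-3p and 44 of miR-54-5p, so counting error is largest there.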
